A study of Mus musculus with 12 samples.

Results

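The genes described here encode the motile axoneme, the microtubule shaft that lets a cilium beat, together with the proteins that build it. They were chosen by name: every dynein heavy chain gene of the Dnah family and 41 further listed genes. The choice was made with earlier results of these data known, as was that of the lists set beside them below. In the deposited table, 37 of these were found under the listed name, and 15 under an older symbol through their NCBI gene ID, among them all 11 heavy chains with a row (listed as Dnahc). This gave 52 genes of the 27129 in the table. For Dnah3, Dnah7c, Dnah12 and Dnah14 no row was matched, and they were not analysed here.

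RNA was sequenced from pituitaries of newborn mice (postnatal day 0) after removal of the posterior lobe. There were 12 libraries, 6 mutant and 6 control, which the series design calls individual glands. Mutant glands were Isl1fx/-, with 1 floxed and 1 null allele of Isl1, a LIM-homeodomain transcription factor. Control glands were Isl1+/fx, with 1 intact and 1 floxed allele. Both groups carried the same Cre transgene, which acts in pituitary progenitors. A library held 45415453 to 61533576 fragments. Isl1 itself had 52.7 to 67.0 CPM (TMM-scaled counts relative to the library total) in mutant libraries and 31.5 to 40.2 CPM in control libraries, a log2 fold change of 0.74 (edgeR adjusted p = 6.41e-06). Its row pools all exons, so this level does not check the deletion, and the groups below go by their labels.

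In a motile cilium, a central pair of microtubules is ringed by doublets. Outer and inner dynein arms, motor complexes of heavy, intermediate and light chains, slide the doublets against each other, and radial spokes pass signals between the central pair and the inner arms. Dynein arms are put together in the cytoplasm by assembly factors before they are carried into the cilium. Multiciliated cells line the airways, brain ventricles and oviduct and switch these genes on as a programme driven by FOXJ1 and RFX factors.

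Axoneme genes were higher in mutant pituitaries across every structural class. Of 51 tested genes, 38 were called higher and 0 lower (edgeR quasi-likelihood test, Benjamini-Hochberg adjusted p under 0.05 over all 19426 tested genes), where 4.84% of all tested genes were called higher and 2.8% lower. Counting every gene whatever its p, 49 had a positive log2 fold change, with a median of 0.60, against a median of -0.0 over all tested genes, of which 49.5% were positive. In 31 of the 51, every mutant library lay above every control library, which held for 3.38% of all tested genes. At least a doubling (log2 fold change of 1 or more) was reached by 16 of the called genes, and 1.84% of all tested genes were called higher by that much. The filter on a mean of 10 counts over the libraries left out 1 of the 52, Tekt3, and 50 of the 51 tested genes reached that mean in the control libraries alone. The exception was Tmem212. In RNA pooled from the cells of a gland, a larger number of ciliated cells and more RNA per cell cannot be told apart.

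Summed over the 52 genes, the level was 899 to 1320 CPM in mutant libraries, with a median of 1020, and 668 to 765 CPM in control libraries, with a median of 700. The classes did not move by the same amount. The median log2 fold change was 2.22 for the 3 intermediate and light chains, 0.98 for the 4 radial spoke genes, 0.82 for the 10 other cilium proteins, 0.54 for the 5 central pair genes and 0.48 for the 4 genes of outer arm docking. It was 0.37 for the 3 tested tektins, 0.36 for the 6 assembly factors, 0.31 for the 11 heavy chains and 0.25 for the 5 genes of the rulers and the nexin-dynein regulatory complex. Genes of a class also differed, to unlike degrees. Log2 fold changes ran from -0.25 to 2.61 among the heavy chains. In the class of the rulers and the nexin-dynein regulatory complex they ran only from 0.02 to 0.91. Differences between classes were not tested.

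**Figure D1:**
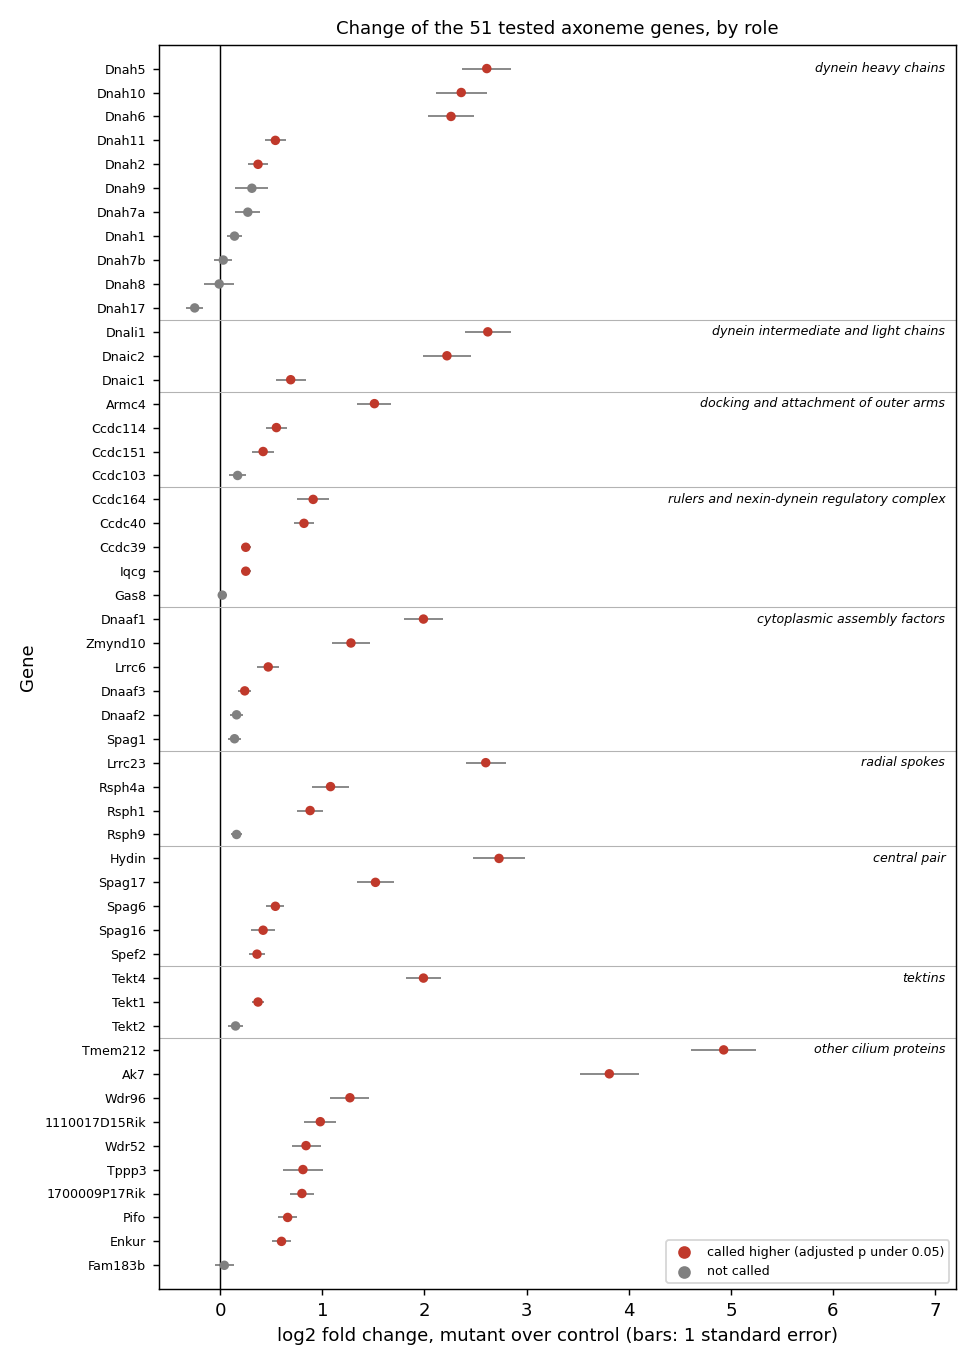
log2 fold change of mutant over control for each of the 51 tested genes (x axis; bars are 1 standard error), grouped by role from top to bottom, in red where called higher and in grey where not. Each class holds called genes, and in most the largest change is several times the smallest; Tmem212 lies farthest right at 4.93 and Dnah17 farthest left at -0.25.

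Because RFX factors and FOXJ1 are known regulators of motile cilium genes, the stretches around their start sites were read for the matching DNA letters. RefSeq promoter windows (250 bases before the start to 50 after, GRCm38.p6, the assembly called mm10) were found for 45 of the 52 genes. GTTGCC, a core of the X-box bound by RFX factors, stood on either strand in the windows of 23 of the 45 genes, or 51.1%, and in 14.1% of all genes with a window. The longer GTTNCCATG, which can overlap that core, was found in 3 of the 45 (6.67%, against 2.22% of all genes), and the forkhead core GTAAACA in 4 (8.89%, against 4.05%). The median GC content was 54% for the member windows and 52.7% for all windows.

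The share with GTTGCC was 46.2% among the 13 genes with a window that were called higher with a log2 fold change of at least 1. It was 52.6% among the 19 called higher by less, and 53.8% among the 13 that were not called or not tested. The 3 genes with GTTNCCATG (Dnah5, Dnali1 and Zmynd10) were all among those 13 with the larger changes (23.1%), with 0 of the 19 and 0 of the other 13. GTAAACA stood in 2 of the 13 (15.4%), 0 of the 19 and 2 of the other 13 (15.4%). A match is only a run of letters and not a shown binding site. The windows below run from 100 bases before the start to 30 after it, 5′ to 3′ along the gene's strand, with matches to GTTGCC or GTTNCCATG on either strand in capitals. They are shown because genes that rose strongly (Hydin, Lrrc23, Dnah10, Dnali1), a gene with an inverted pair of cores (1110017D15Rik) and genes that were not called (Gas8, Fam183b) all carry such letters. GGCAAC is GTTGCC read on the other strand.
Hydin: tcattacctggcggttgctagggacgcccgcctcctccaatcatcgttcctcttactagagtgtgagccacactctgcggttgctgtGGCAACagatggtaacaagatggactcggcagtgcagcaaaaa
Lrrc23: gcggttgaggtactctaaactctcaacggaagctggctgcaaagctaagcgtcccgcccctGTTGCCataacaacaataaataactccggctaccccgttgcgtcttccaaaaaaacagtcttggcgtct
Dnah10: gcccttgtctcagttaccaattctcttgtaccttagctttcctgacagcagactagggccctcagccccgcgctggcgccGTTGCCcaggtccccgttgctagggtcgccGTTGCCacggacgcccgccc
Dnali1: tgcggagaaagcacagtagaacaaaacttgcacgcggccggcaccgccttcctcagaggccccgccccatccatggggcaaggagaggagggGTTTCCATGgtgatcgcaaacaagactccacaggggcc
1110017D15Rik: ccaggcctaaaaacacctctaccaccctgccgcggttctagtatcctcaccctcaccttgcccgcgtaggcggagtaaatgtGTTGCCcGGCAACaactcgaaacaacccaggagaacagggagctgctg
Gas8: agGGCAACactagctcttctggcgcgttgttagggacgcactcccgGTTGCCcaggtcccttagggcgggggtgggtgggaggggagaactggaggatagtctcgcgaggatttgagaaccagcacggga
Fam183b: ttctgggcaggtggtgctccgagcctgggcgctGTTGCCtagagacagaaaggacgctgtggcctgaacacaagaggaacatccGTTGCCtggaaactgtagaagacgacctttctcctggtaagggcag

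These windows lie on GRCm38.p6 at chr8:110266877-110267006 (plus strand, Hydin), chr6:124779698-124779827 (minus strand, Lrrc23), chr5:124724985-124725114 (plus strand, Dnah10), chr4:125065628-125065757 (minus strand, Dnali1), chr4:41507735-41507864 (minus strand), chr8:123518735-123518864 (plus strand, Gas8) and chr11:58801931-58802060 (minus strand, Fam183b). In Dnali1 the capitals mark the longer GTTNCCATG. In 1110017D15Rik the core and its copy on the other strand stand 1 base apart inside this window, 18 to 6 bases before the start site. The gene has another window, nearer its 5′ end (chr4:41517284-41517583, minus strand), which holds no match.

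The heavy chains are the ATP-driven motors, and in mutant pituitaries 3 of them rose steeply. Of the 11 tested, 5 were called higher, 0 lower, and 6 were not called. Dnah5, the outer arm motor present along the whole cilium, had 17.4, 26.2 and 52.0 CPM (lowest, median and highest library) in mutant glands, against 4.02, 4.54 and 5.02 CPM in control glands. Its lowest mutant library was above every control library. The log2 fold change was 2.61 (SE 0.238, edgeR adjusted p = 2.35e-05) at chr15:28154854-28472045 of mm10.

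Dnah10, a motor of the double-headed inner arm, had 17.4, 27.1 and 49.3 CPM in mutant libraries and 4.56, 5.42 and 6.80 CPM in control libraries, a log2 fold change of 2.36 (SE 0.251, edgeR adjusted p = 8.38e-05). Dnah6, a single-headed inner arm motor, had 13.4, 19.4 and 38.4 CPM in mutant libraries and 3.73, 4.50 and 5.20 CPM in control libraries, a log2 fold change of 2.26 (SE 0.225, edgeR adjusted p = 3.66e-05). Neither gene's groups overlapped.

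The other called motors moved less. Dnah11, the outer arm motor of the proximal cilium, rose by 0.54 (SE 0.101, edgeR adjusted p = 0.00408), with 37.8, 40.6 and 50 CPM in mutant libraries and 23.1, 29.3 and 33.8 CPM in control libraries. Its groups did not overlap, but its row overlaps that of Cdca7l, and the library kit keeps no strand. Dnah2, the partner of Dnah10 in the double-headed inner arm, rose by 0.37 (SE 0.102, edgeR adjusted p = 0.0414), with 52.3, 59.7 and 65.9 CPM in mutant libraries and 39.9, 42.9 and 64.0 CPM in control libraries. Control 5 alone, at 64.0 CPM, lay inside the mutant range. The call for Dnah2 was lost in 14 of 21 alternative analyses, 10 of them leaving out 1 library (any but mutant 3 or control 5), with adjusted p of 0.0503 to 0.0926.

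Dnah9, the outer arm motor of the distal cilium, had 40.7, 60.1 and 66.8 CPM in mutant libraries and 35.3, 41.4 and 62.3 CPM in control libraries, with a log2 fold change of 0.31 (SE 0.162) that was not called. Dnah1, an inner arm motor, had 54.4, 57.9 and 73.8 CPM in mutant libraries and 49.8, 53.5 and 61.6 CPM in control libraries, and its log2 fold change of 0.14 (SE 0.0749, edgeR adjusted p = 0.291) was not called either. The near-identical inner arm paralogs Dnah7a and Dnah7b, between which reads may be shared, had log2 fold changes of 0.27 and 0.03, neither called. Dnah8 and Dnah17 are outer arm motors known from the sperm tail. Dnah8 had a log2 fold change of -0.01 (SE 0.149). Dnah17 (chr11:118021723-118130719) had the lowest value of the 51 genes, -0.25 (SE 0.0808, edgeR adjusted p = 0.0841), with 4.50, 4.82 and 4.96 CPM in mutant libraries and 4.80, 5.65 and 6.57 CPM in control libraries. Its adjusted p was 0.0395 with DESeq2 and 0.0437 without control 3, the alternatives in which it passed as lower.

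**Figure D2:**
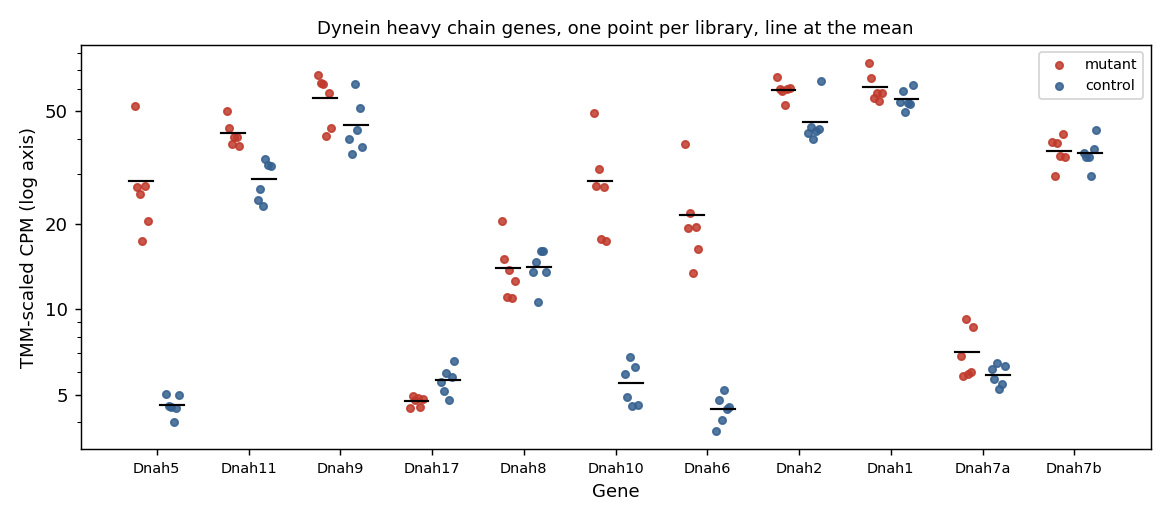
TMM-scaled CPM (log axis) of the 11 dynein heavy chain genes, 1 point per library, mutant in red and control in blue, with a line at each mean. Dnah5, Dnah10 and Dnah6 stand clear of their controls, while the points of Dnah1, Dnah2, Dnah7a, Dnah7b, Dnah8, Dnah9 and Dnah17 overlap.

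Per length of transcript, the 3 heavy chains that rose most were low in control glands, as were some that were not called. Dnah5 averaged 1.77 ± 0.746 FPKM in mutant glands and 0.287 ± 0.023 FPKM in control glands (SD, n = 6 each), Dnah10 1.93 ± 0.702 FPKM in mutant and 0.379 ± 0.0645 FPKM in control glands, and Dnah6 1.66 ± 0.644 FPKM in mutant and 0.344 ± 0.0442 FPKM in control glands. Dnah17, with 0.307 ± 0.0269 FPKM in mutant and 0.363 ± 0.0489 FPKM in control glands, and Dnah7a, with 0.573 ± 0.122 FPKM in mutant and 0.472 ± 0.042 FPKM in control glands, began at like levels and were not called. Dnah1, at 4.58 ± 0.410 FPKM in mutant and 4.15 ± 0.404 FPKM in control glands, stayed the highest heavy chain by mean level. Dnah2 followed with 4.21 ± 0.229 FPKM in mutant and 3.26 ± 0.696 FPKM in control glands. The levels of Dnah1, Dnah2 and Dnah9 (3.89 ± 0.699 FPKM in mutant glands, 3.14 ± 0.763 FPKM in control glands) followed each other so closely in mutant glands that neighbouring means differed by less than the larger of their SDs.

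All 3 intermediate and light chain genes rose. Dnali1, a light intermediate chain of inner arms (chr4:125055339-125065657), had 5.07, 8.25 and 14.7 CPM in mutant libraries and 1.28, 1.36 and 1.58 CPM in control libraries. Its log2 fold change was 2.62 (SE 0.225, edgeR adjusted p = 7.82e-06). Dnaic2, an intermediate chain of the outer arm, had 4.82, 7.67 and 14.0 CPM in mutant libraries and 1.25, 1.80 and 1.98 CPM in control libraries, a log2 fold change of 2.22 (SE 0.238, edgeR adjusted p = 4.31e-05). In both genes the lowest mutant library was more than double the highest control library. Dnaic1, the other outer arm intermediate chain, rose by only 0.69 (SE 0.148, edgeR adjusted p = 0.00968), with 4.36, 4.97 and 7.84 CPM in mutant libraries and 2.89, 3.23 and 4.04 CPM in control libraries, again without overlap.

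Of the 4 genes that dock or attach outer arms to the doublet, 3 were called higher. Armc4, a docking protein, rose most, by 1.51 (SE 0.167, edgeR adjusted p = 3.72e-05), with 3.65, 5.33 and 7.86 CPM in mutant libraries and 1.63, 1.88 and 2.65 CPM in control libraries. Ccdc114, a subunit of the docking complex, had 10.8, 12 and 13.8 CPM in mutant libraries and 6.45, 7.92 and 10 CPM in control libraries, a log2 fold change of 0.55 (SE 0.101, edgeR adjusted p = 0.00318). Neither overlapped between groups. Ccdc151, its partner in docking, rose by 0.42 (edgeR adjusted p = 0.0251), with 11.5, 14.0 and 18.4 CPM in mutant libraries and 8.83, 10.6 and 12.2 CPM in control libraries, where the ranges overlapped. That call was lost with the replicate block (adjusted p = 0.0797), with limma on log2 FPKM at either pseudocount (0.0567 and 0.0545) and without mutant 1, mutant 3 or control 4 (0.0527 to 0.0564). Ccdc103, an attachment factor of the arms, had a log2 fold change of 0.17 (SE 0.0831) and was not called.

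Ccdc39 and Ccdc40 form the molecular ruler that sets where arms and spokes repeat, and both were called higher, by unequal amounts. Ccdc40 had 19.8, 22.3 and 29.7 CPM in mutant libraries and 11.2, 12.9 and 14.6 CPM in control libraries, a log2 fold change of 0.82 (SE 0.0959, edgeR adjusted p = 6.65e-05). Ccdc39 had 53.8, 58.1 and 63.1 CPM in mutant libraries and 44.4, 49.8 and 52.1 CPM in control libraries, a log2 fold change of 0.25 (SE 0.0506, edgeR adjusted p = 0.00599). Both sets of libraries were fully separated.

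In the nexin-dynein regulatory complex, which links doublets and restrains sliding, Ccdc164 (now Drc1) rose by 0.91 (SE 0.157, edgeR adjusted p = 0.00219), with 10.1, 11.9 and 18 CPM in mutant libraries and 4.62, 6.72 and 8.11 CPM in control libraries. Iqcg, another subunit, rose by 0.25 (SE 0.0507, edgeR adjusted p = 0.00757), with 46.1, 49.5 and 53.7 CPM in mutant libraries and 38.7, 41.1 and 47.0 CPM in control libraries. Gas8, also a subunit, had 29.6, 31.9 and 34.0 CPM in mutant libraries and 30.1, 30.8 and 33.8 CPM in control libraries. Its groups overlapped almost fully, with a log2 fold change of 0.02 (SE 0.0447, edgeR adjusted p = 0.812).

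Among the cytoplasmic assembly factors, 4 of 6 were called higher, and the sizes ran from 0.14 to 1.99. Dnaaf1, a leucine-rich repeat protein needed for arm preassembly, had 2.44, 4.05 and 5.65 CPM in mutant libraries and 0.743, 0.977 and 1.29 CPM in control libraries, a log2 fold change of 1.99 (SE 0.195, edgeR adjusted p = 1.52e-05). Zmynd10, which acts with Lrrc6, had 8.38, 11.7 and 17.8 CPM in mutant libraries and 3.78, 4.92 and 6.98 CPM in control libraries, a log2 fold change of 1.28 (SE 0.182, edgeR adjusted p = 0.000482). In both genes the groups did not overlap.

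Lrrc6 rose by 0.47 (SE 0.108, edgeR adjusted p = 0.0147), with a lowest mutant library of 4.98 CPM against a highest control library of 5.03 CPM. Dnaaf3 had 12.3, 13.1 and 14.2 CPM in mutant libraries and 10.3, 10.7 and 13 CPM in control libraries, and rose by 0.24 (SE 0.0661, edgeR adjusted p = 0.0432). That call was lost in 15 of 21 alternatives, with adjusted p of 0.0505 to 0.0904, among them the replicate block (0.0724) and leaving out any library but mutant 5 or control 5. Dnaaf2 (0.16) and Spag1 (0.14), preassembly factors that work with chaperones, were not called.

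Of the 4 radial spoke genes, 3 were called higher and 0 lower. Lrrc23, a protein of the spoke head (chr6:124769869-124780438), had 14.3, 25.3 and 37.6 CPM in mutant libraries and 3.10, 4.18 and 4.77 CPM in control libraries. Its log2 fold change was 2.60 (SE 0.197, edgeR adjusted p = 5.57e-06), and per length it averaged 18.4 ± 4.75 FPKM in mutant glands and 3.06 ± 0.479 FPKM in control glands (SD, n = 6 each). Every mutant library was thus about triple the highest control library or more.

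Rsph1, Rsph4a and Rsph9 are further proteins of the spoke head. Rsph4a had 8.59, 12.9 and 20 CPM in mutant libraries and 4.99, 5.90 and 7.62 CPM in control libraries, a log2 fold change of 1.08 (SE 0.177, edgeR adjusted p = 0.00154). Rsph1 had 13.3, 16 and 25.0 CPM in mutant libraries and 8.32, 9.10 and 10.7 CPM in control libraries, a log2 fold change of 0.88 (SE 0.128, edgeR adjusted p = 0.000501). Neither overlapped. Rsph9, whose row overlaps the mitochondrial ribosomal protein gene Mrps18a, had 19.1, 19.7 and 21.4 CPM in mutant libraries and 15.9, 18.3 and 19.3 CPM in control libraries, and was not called (0.16, SE 0.0563, edgeR adjusted p = 0.0989).

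All 5 central pair genes were called higher. Hydin, a giant protein of a central pair projection (chr8:110266968-110610253), had 9.31, 15.3 and 30.8 CPM in mutant libraries and 2.23, 2.38 and 2.88 CPM in control libraries, a log2 fold change of 2.73 (SE 0.256, edgeR adjusted p = 2.35e-05). Spag17 had 4.88, 8.25 and 13.3 CPM in mutant libraries and 2.71, 2.96 and 3.12 CPM in control libraries, a log2 fold change of 1.52 (SE 0.185, edgeR adjusted p = 0.000113). Both were separated between the groups.

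Spag6, an armadillo-repeat protein of the central pair, had 11.9, 14.1 and 17 CPM in mutant libraries and 8.19, 9.67 and 10.6 CPM in control libraries, a log2 fold change of 0.54 (SE 0.0872, edgeR adjusted p = 0.00117). Its row lies at the gene that RefSeq calls Spag6l. Spef2 had 7.32, 8.49 and 9.62 CPM in mutant libraries and 5.69, 6.73 and 7.03 CPM in control libraries, a log2 fold change of 0.36 (SE 0.0767, edgeR adjusted p = 0.00973). Spag6 and Spef2 were fully separated, Spef2 narrowly. Spag16, a repeat protein between the pair, rose by 0.42 (edgeR adjusted p = 0.0354) with 4.11, 4.76 and 6.15 CPM in mutant libraries and 2.99, 3.57 and 4.30 CPM in control libraries, which overlapped. That call was lost in 9 of 21 alternatives, with adjusted p of 0.0514 to 0.0785, among them leaving out mutant 0, 2, 4 or 5 or control 2, 3, 4 or 5.

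The tektins, filaments that stiffen the doublets, ranged from a rare member that rose strongly to an abundant one that was not called. Tekt4 had 3.18, 4.17 and 6.84 CPM in mutant libraries and 0.924, 1.12 and 1.34 CPM in control libraries, a log2 fold change of 1.99 (SE 0.173, edgeR adjusted p = 6.41e-06, fold 3.99). Tekt1 had 39.2, 41.8 and 47.4 CPM in mutant libraries and 29.3, 32.6 and 35.5 CPM in control libraries, a log2 fold change of 0.37 (SE 0.0579, edgeR adjusted p = 0.000829). Both were separated. Tekt2 had 29.1, 31.4 and 38.5 CPM in mutant libraries and 27.2, 29.3 and 34.0 CPM in control libraries, and its log2 fold change of 0.15 (SE 0.0738, edgeR adjusted p = 0.27) was not called. Tekt3, left out by the count filter, had 0.0834 to 0.261 CPM in mutant libraries and 0 to 0.0586 CPM in control libraries.

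Among the other cilium proteins, 9 of 10 were called higher, and they hold the largest changes. Tmem212, a transmembrane protein (chr3:27866065-27896391), had 1.79, 3.13 and 5.80 CPM in mutant libraries and 0.0603, 0.111 and 0.150 CPM in control libraries, a log2 fold change of 4.93 (SE 0.319, edgeR adjusted p = 1.99e-06). Its control libraries averaged only 5.17 fragments. Ak7, an adenylate kinase of the cilium, had 5.23, 8.28 and 17.4 CPM in mutant libraries and 0.484, 0.665 and 0.821 CPM in control libraries, a log2 fold change of 3.81 (SE 0.289, edgeR adjusted p = 4.65e-06). In both genes the lowest mutant library lay far above the highest control library.

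Wdr96 and Wdr52 (now Cfap43 and Cfap44), which tether an inner arm to the doublet, rose by 1.27 (SE 0.191, edgeR adjusted p = 0.000861) and 0.84 (SE 0.142, edgeR adjusted p = 0.00238). 1110017D15Rik rose by 0.98 and 1700009P17Rik (now Cfap126, which helps place basal bodies) by 0.80. Pifo, linked to cilium disassembly, rose by 0.66 and Enkur, an axonemal adaptor protein, by 0.60. In these 6 genes no mutant library overlapped a control library, and the adjusted p of the last 4 lay between 0.000319 and 0.00119. In the authors' deposited table, 1 of 8 isoforms of 1110017D15Rik was marked, with 2.56 FPKM in the mutant group and 1.07 FPKM in the control group.

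Tppp3, a tubulin polymerization-promoting protein, had 27.8, 31.1 and 52.8 CPM in mutant libraries and 13.1, 20.3 and 28.2 CPM in control libraries, with a slight overlap, and a log2 fold change of 0.81 (SE 0.194, edgeR adjusted p = 0.0244). The call was lost with the replicate block (adjusted p = 0.0804) and without mutant 1 or control 4 (0.0538 and 0.0563). Fam183b, a cilium-associated protein, was by far the most abundant of the 51 genes per length, with 122 ± 9.66 FPKM in mutant glands and 118 ± 21.9 FPKM in control glands (SD, n = 6 each). It had 41.5, 44.6 and 51.2 CPM in mutant libraries and 36.6, 42.8 and 56.4 CPM in control libraries, and its log2 fold change of 0.04 (SE 0.0913, edgeR adjusted p = 0.836) was not called.

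**Figure D3:**
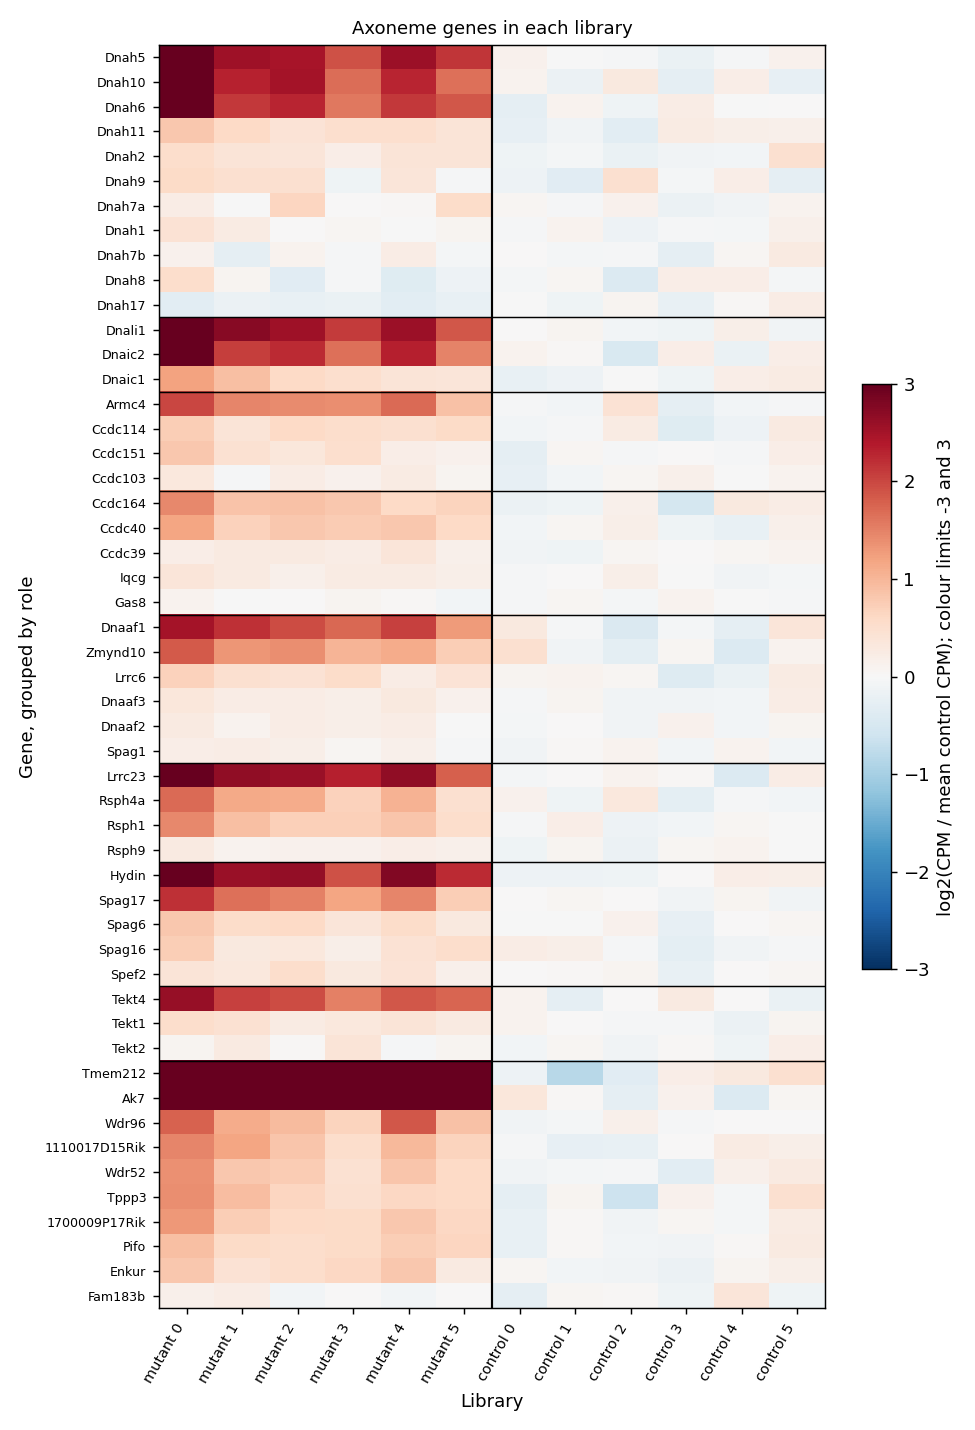
log2 ratio of each gene's CPM in each library (columns, mutant left and control right) to its mean over the 6 control libraries, with genes in rows grouped by role and colours limited at -3 and 3. The red block of mutant columns runs through all roles, is deepest in mutant 0, and is pale for genes such as Gas8, Fam183b, Dnah1 and Dnah7b.

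The size of a change went with the level a gene already had in control pituitaries. Of 15 genes with a control mean under 1 FPKM, 12 were called higher, and the median log2 fold change of the 15 was 2.22. Of 23 genes at 1 to 5 FPKM, 17 were called higher, with a median of 0.54. Of 13 genes at 5 FPKM or more, 9 were called higher, with a median of 0.25.

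In added RNA per length, the order was different. The mutant mean minus the control mean had a median of 1.31 FPKM for the genes under 1 FPKM, 0.956 FPKM for those at 1 to 5 FPKM and 3.44 FPKM for those at 5 FPKM or more. The largest additions were 16.6 FPKM for Tppp3, with 39.7 ± 6.63 FPKM in mutant and 23.1 ± 6.81 FPKM in control glands (SD, n = 6 each), and 15.3 FPKM for Lrrc23. Tekt1 added 7.65 FPKM, Rsph1 7.58 FPKM and 1700009P17Rik 6.99 FPKM. Control values enter both axes of this comparison, which is a description with no test.

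**Figure D4:**
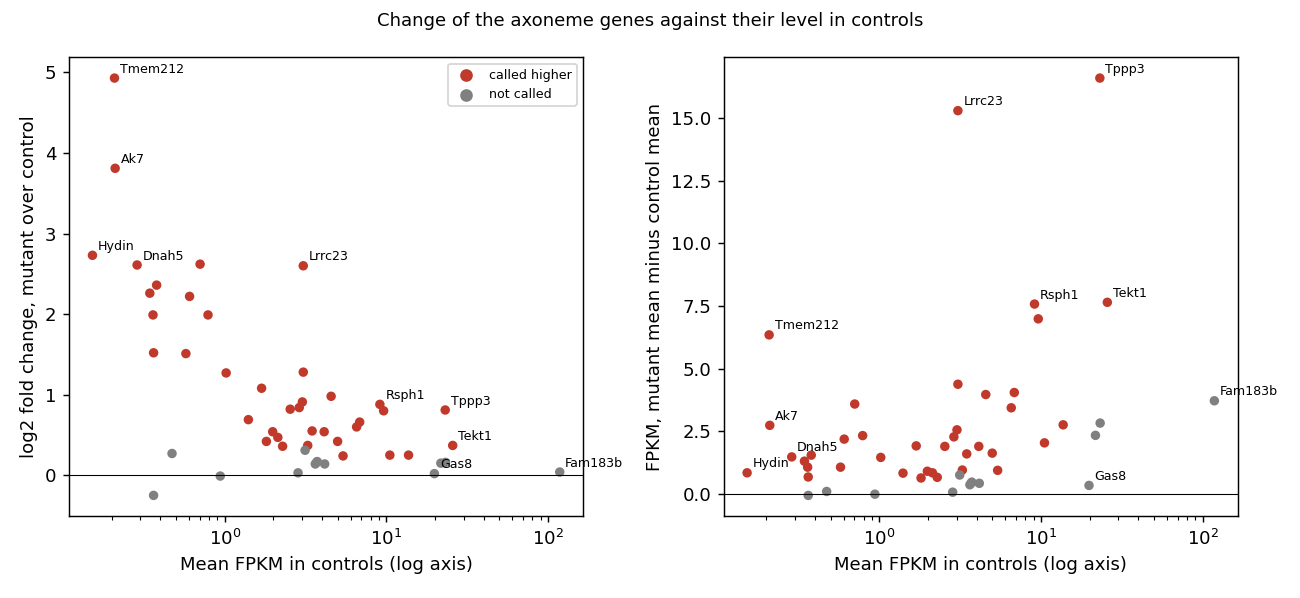
Log2 fold change (left) and mutant mean minus control mean in FPKM (right) of the 51 tested genes against their mean FPKM in controls (log axis), in red where called higher and in grey where not. The highest fold changes sit at control levels under 1 FPKM, with Lrrc23 the exception near 3.06 FPKM, while the largest amounts were added by Tppp3 and Lrrc23.

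The mutant libraries differed among themselves in a way the axoneme genes shared. Mutant 0 was the highest mutant library for 41 of the 51 genes (80.4%) and for 15 of the 16 genes with a log2 fold change of at least 1 (93.8%). It was the highest for 19.5% of all tested genes and for 57.3% of the 902 called-higher genes outside the set. Mutant 5 was the lowest for 24 of the 51 (47.1%), for 16.8% of all tested genes and for 39.9% of those 902.

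Relative to the mean of the 6 mutant libraries, the 51 genes had a median ratio of 1.29 in mutant 0, 1.01 in mutant 1, 0.97 in mutant 2, 0.892 in mutant 3, 0.999 in mutant 4 and 0.862 in mutant 5. For the 16 most changed genes it was 1.65 in mutant 0, 0.711 in mutant 3 and 0.631 in mutant 5. Among the control libraries the medians lay between 0.956 and 1.07. Control 5 was the highest of these for 20 of the 51 (39.2%) and for 17.8% of all tested genes. Without mutant 0, 35 of the 51 were called higher and 0 lower, with a median log2 fold change of 0.55. The log2 fold change of Ak7 was then 3.52, against 3.81 with all libraries, and that of Hydin 2.46, against 2.73, the members whose fold change moved most.

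**Figure D5:**
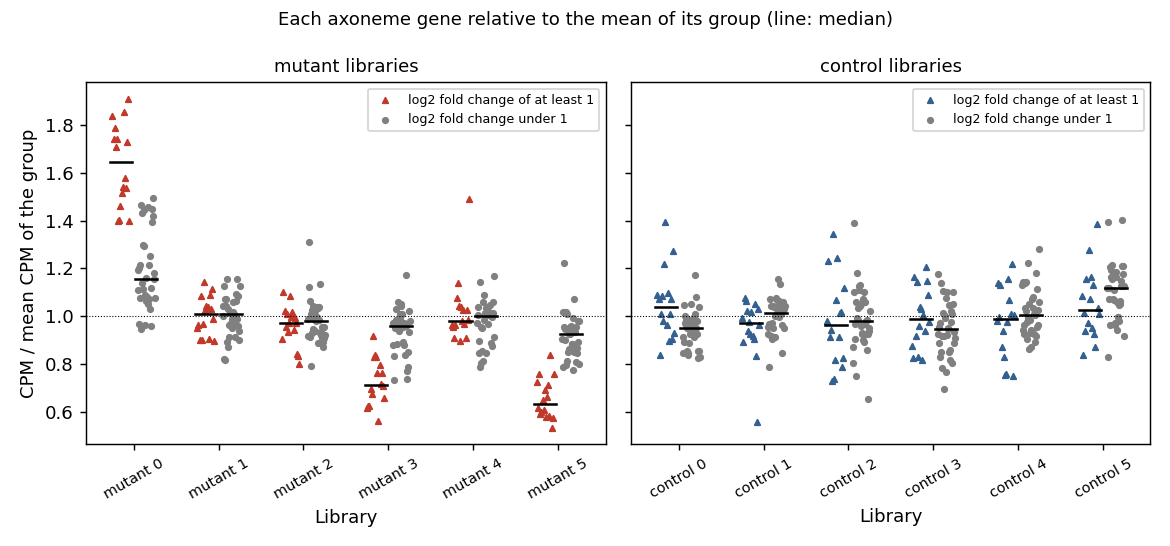
CPM of each of the 51 genes in each library divided by its mean over the libraries of the same group, mutant left and control right; triangles are the 16 genes with a log2 fold change of at least 1, circles the other 35, and lines are medians. The triangles stand at a median of 1.65 in mutant 0 and 0.631 in mutant 5, while all control medians lie close to 1.

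Foxj1, which encodes the forkhead factor that turns on motile cilium genes, showed a like order across the mutant libraries, with 66.4 CPM in mutant 0, 46.6 in mutant 1, 45.7 in mutant 2, 38.6 in mutant 3, 47.1 in mutant 4 and 34.5 in mutant 5, against 16.8 to 20.2 CPM in control libraries. Mutant 0 was also highest for Isl1 (67.0 CPM) and for the epithelial markers Trp63 (12.3 CPM) and Cyp2f2 (65.1 CPM). Mutant 5 was lowest for Trp63 (5.77 CPM) and Cyp2f2 (29.9 CPM), but mutant 2 for Isl1 (52.7 CPM). Other epithelial markers, such as Dsc3 and Bpifa1, were highest in mutant 1. The order was thus not particular to Foxj1 and the axoneme genes, and a link between them was not tested. Of 10 tested regulators of multiciliated cell fate, 8 were called higher and 0 lower. Foxj1 rose by 1.34 (edgeR adjusted p = 2.34e-05), Ccno, a cyclin-like protein of centriole amplification, by 2.50 (edgeR adjusted p = 5.1e-06) and Mcidas, a coregulator at the top of the programme, by 4.30 (edgeR adjusted p = 1.18e-05). Mcidas reached the count filter only through the mutant libraries. Rfx2 and Rfx3, which encode X-box binding factors, had log2 fold changes of -0.07 and 0.10 and were not called.

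A wider list of genes linked to motile cilia or ciliated cells, outside the named set, moved with it. Not every gene of this list encodes a part of the axoneme. Of 86 tested, 57 were called higher and 0 lower, with a median log2 fold change of 0.56. The 6 with the largest changes were Tctex1d4 (3.88), Wdr16 (3.51), Ttc29 (3.42), Ccdc135 (3.41), Cdhr3 (3.24) and Spata18 (3.18), with edgeR adjusted p between 3.81e-06 and 1.62e-05. In control libraries these 6 genes averaged 0.136 to 1.62 CPM, and Tctex1d4 reached the count filter only through the mutant libraries, while 84 of the 86 reached it in control libraries alone.

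The related machinery of the cell body and of cilium transport changed little by comparison, although the difference between lists was not tested. Of 20 cytoplasmic dynein and dynactin genes, 0 were called higher and 1 lower by edgeR, Dynll2 (-0.14, edgeR adjusted p = 0.0382). Of all tested genes, 4.84% were called higher and 2.8% lower. An unadjusted p under 0.05 was reached by 7 of the 20, and among these only Dynlt1b (0.14) had a positive log2 fold change. The share of all tested genes with such a p was not taken, so the 7 cannot be judged against it. Summed CPM of the 20 had a median of 2670 in mutant libraries and 2790 in control libraries. Of 23 genes of intraflagellar transport, which carries parts into all cilia, 2 were called higher, Ift43 (0.30, edgeR adjusted p = 0.00582) and Ift88 (0.16, edgeR adjusted p = 0.0231), and 0 lower. The list's median log2 fold change was 0.04, and its sum was 1350 to 1430 CPM in mutant libraries and 1330 to 1400 CPM in control libraries.

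Markers of other epithelia were higher in the same mutant glands. All 6 basal and stratified epithelium markers were called higher, with a summed level of 55.1 to 120 CPM in mutant libraries and 12.2 to 17.3 CPM in control libraries. Of 8 airway and nasal secretory markers, 6 were tested and called higher, but 4 of these (Bpifa1, Muc5ac, Reg3g and Scgb3a1) reached the count filter only through the mutant libraries, so that their number is no measure of the list. The 8 markers had sums of 68.5 to 159 CPM in mutant libraries and 2.68 to 7.86 CPM in control libraries. Scgb1a1 and Scgb3a2, defining genes of airway club cells, were near 0 in both groups (means of 0.00269 and 0.00969 CPM in mutant, 0.00344 and 0.00354 CPM in control libraries).

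Krt5, a keratin of basal cells, had 7.69 to 20.7 CPM in mutant libraries and 0.0804 to 1.32 CPM in control libraries, with its maximum in mutant 0. Reg3g, a secreted lectin of such epithelia, had 6.06 to 26.2 CPM in mutant libraries and 0.0215 to 0.297 CPM in control libraries, again highest in mutant 0. The part of these markers in the change of the axoneme genes was not tested.

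Few markers of the posterior lobe or of the neighbouring brain were called. Of 5 markers of pituicytes, cells of the posterior lobe, 0 were called. They had sums of 215 to 255 CPM in mutant libraries and 214 to 268 CPM in control libraries. These transcripts were thus present in both groups although the posterior lobe had been removed, and their source was not tested. Of 6 markers of ependyma and tanycytes, 1 was called higher, Dynlrb2 (0.92, edgeR adjusted p = 0.000111). This dynein light chain gene is itself in the wider list of cilium genes. The 6 markers had sums of 3660 to 4810 CPM in mutant libraries and 4290 to 5690 CPM in control libraries. Of 6 choroid plexus markers, 1 was called higher, Clic6 (0.90), with sums of 110 to 129 CPM in mutant libraries and 85.6 to 99.0 CPM in control libraries, which did not overlap. Clic6 averaged 64.0 CPM in mutant and 34.4 CPM in control libraries, and the other 5 had log2 fold changes of -0.22 to 0.06. Its part in the change of the axoneme genes was not tested. Of 8 male germ cell markers only Ldhc reached the count filter, and it was not called. The list summed to 0.396 to 1.44 CPM in mutant libraries and 0.340 to 1.30 CPM in control libraries.

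Hormone genes marked the tissue as pituitary. Gh, the gene for growth hormone, averaged 41500 CPM in mutant and 46400 CPM in control libraries, and 4 of 8 markers of anterior pituitary endocrine cells were called lower, with Cga, the common subunit of glycoprotein hormones, the farthest at -2.31 (edgeR adjusted p = 0.000385). By start and end, the rows of Dnah9, Dnah11, Dnah17, Dnaic1, Dnali1, Ccdc39, Ccdc40, Ccdc103 and Iqcg overlap rows of other genes. So do those of Dnaaf1, Dnaaf2, Spag1, Rsph1, Rsph9, Spag6, Spag17, Hydin and Fam183b. Whether their exons overlap was not examined. Only reads from a shared stretch of exon could not be told apart without strand. Mutant 0, mutant 3 and control 4 held next to no Y-linked transcripts. With a covariate for these transcripts, 35 of the 51 axoneme genes were called higher and 0 lower.

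In the authors' deposited table, which compares the groups with Cuffdiff, 25 of the 52 axoneme genes were marked as changed (a fold of 1.5 or more with q not above 0.05), all of them higher in the mutant group, where 2.44% of all rows were marked. All 25 were also called higher here, which left 13 called here alone. Of the 52, 35 had a q of at most 0.05 in the authors' deposited table, whatever the fold. The authors' deposited table of DAVID terms for the marked genes lists the axonemal dynein complex with 3 genes and a fold enrichment of 17.8 (Benjamini p = 0.147), and the cilium with 12 genes and a fold of 3.17 (Benjamini p = 0.0604).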

How the data were processed

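Libraries were made from total RNA with a kit that keeps no strand, per the labels' protocols. The submitters' processing notes name build mm10 and, among the tools, TopHat2 2.0.9 with Bowtie2 2.1.0, and Cuffdiff 2.1.1 with Cufflinks. The authors deposited an estimated count of fragments and an FPKM per gene and library, per the file headers, and of the counts above 0 in a library, 89.99% to 90.41% were whole; the rest were rounded. A further 12 columns of scaled values were not used. The authors' deposited comparison gives group FPKM, log2 fold changes and q-values, and the deposited DAVID table gives gene counts, a fold enrichment (ratio) and adjusted p-values.

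Genes with a mean count of at least 10 over the 12 libraries were tested with edgeR 4.0.16 (R 4.3.3), quasi-likelihood, TMM scaling and no covariate. A count filter was used because a minimum of 1 FPKM in 6 libraries would set aside 7 of the long or rare axoneme genes. Adjusted p is Benjamini-Hochberg over all 19426 genes, with a threshold of 0.05. CPM are TMM-scaled. The members and lists were chosen with earlier results of these data known. Full values were set for the 2 most abundant members of each role, the largest and smallest change and any member called lower; every other member described was chosen with its values seen. The name of the Cre driver is not reported here. Groups and replicate numbers come from the labels, which do not say that equal numbers share a litter or day. The series design calls the samples individual, and p-values measure the spread between them. No library repeated another: in all 30 within-group pairs the counts differed beyond counting error, with chi-square values of 14.7 to 37.2 for each degree of freedom. The shallowest library held 45415453 fragments.

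On simulated counts for 19426 genes with these library sizes, edgeR recovered 46%, 86%, 88% and 100% of genes changed by 1.25, 1.5, 2 and 4 times. It called 8 of 19226 unchanged genes. In the data, 940 genes were called higher and 544 lower, more than were changed in the simulation. The adjustment of p depends on that number, so these shares need not hold for the data. The 21 alternatives were other scalings, filters, DESeq2 1.42.0, limma 3.58.1 on log2(FPKM + 1) and log2(FPKM + 0.1), the replicate block, a Y-linked covariate, and each library left out in turn. A count restricted to listed names was added after the data were seen. Motifs were matched in RefSeq promoters. Figures were drawn with matplotlib 3.10.9.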

Additional observations from a re-analysis of the deposited data

Results flagged for a closer look

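In 13 of 104 groups of 6 libraries (52 genes, mutant and control), 1 library stood apart from the other 5, by a gap to its nearest neighbour that exceeded Dixon's 95% critical value. Chance alone gives about 1 in 20 groups. In 9 of the 13 the library was mutant 0, and it was the highest each time. Its values were 52.0 CPM for Dnah5 (other mutant libraries 17.4 to 27.2), 38.4 CPM for Dnah6 (13.4 to 21.9), 30.8 CPM for Hydin (9.31 to 17), 17.4 CPM for Ak7 (5.23 to 9.01) and 50 CPM for Wdr52 (26.6 to 34.4). It had 29.7 CPM for Ccdc40 (19.8 to 22.7), 18 CPM for Ccdc164 (10.1 to 12.3), 25.0 CPM for Rsph1 (13.3 to 17.4) and 20.7 CPM for 1700009P17Rik (12.4 to 14.8). The genes share libraries and are not independent, and the cause was not tested. All 9 genes were still called higher without mutant 0.

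The 4 others were in control libraries. Dnah2 had 64.0 CPM in control 5 (other control libraries 39.9 to 43.8). Armc4 had 2.65 CPM (1.63 to 1.93) and Iqcg 47.0 CPM (38.7 to 41.6) in control 2. Spef2 had 5.69 CPM in control 3, below the others (6.66 to 7.03).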

How the results depend on the processing

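The count of axoneme genes called higher was 38, and between 33 and 38 under 21 alternatives. Of the 38, 33 were called higher in each alternative that tested them. Dnaaf1, Hydin and Spag17 are among these 33, although the FPKM filter did not test them. The others, which lost their call in some alternatives, were Dnah2, Ccdc151, Dnaaf3, Spag16 and Tppp3. With members restricted to the listed names, an alternative chosen after seeing the data, it was 30. Members called lower numbered 1 instead of 0 with DESeq2, and 0 to 1 when 1 library was left out (Dnah17, without control 3). The central pair count was 3 instead of 5 with the FPKM filter, which did not test Hydin and Spag17. Over all genes, 544 were called lower, against 361 with library totals, 1000 with DESeq2, 282 and 275 with limma at pseudocounts 1 and 0.1, and 287 to 623 with 1 library left out. Cytoplasmic dynein genes called lower numbered 1, against 0 with library totals, 3 with DESeq2, 0 with either limma fit and 0 to 1 with 1 library left out. Uncalled values near 0 changed sign: Dnah8 (-0.01) was 0.01 with library totals and -0.15 to 0.05 with 1 library left out, where Dnah7b ran from -0.02 to 0.09 and Fam183b from -0.0 to 0.13. For these changes the cause was not tested.

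For libraries of equal replicate number, the correlation of their deviations from the group means ran from -0.0953 to 0.319. Of the 6 numbers, 2 matched best with their own. Such correlations cannot show whether equal numbers shared a litter or day. With the replicate block 35 members were called higher. Tekt3, with a mean count under the filter, was called only without it (log2 fold change 2.69, edgeR adjusted p = 0.00887). Of simulated 1.25-fold changes 46% were called, so an uncalled small fold is not shown to be absent.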
